A study of Homo sapiens with 8 samples.

Results

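The human mitochondrial genome carries 37 genes, and all 37 were present among the 28395 genes of the deposited table. Members were the rows whose Entrez identifier belongs to the mitochondrial chromosome: 13 mRNAs, the 2 rRNAs RNR1 and RNR2, and 22 tRNAs. They were measured in 8 polyA-selected RNA-seq libraries of A-498 cells, an established line from a human kidney cancer. There were 4 derived lines with replicates 1 and 2 of each. Non-targeting guide RNAs 1 and 2 were carried by control line 1 and control line 2, and the lines labelled KO guide 1 and KO guide 2 carried guide RNAs 1 and 2 targeting ANXA4, which encodes annexin A4. Each guide was represented by a single derived line, so guide and line cannot be told apart, and the labels do not say whether a line is a clone or a pool. All cells were seeded in equal numbers and grown for 24 h without reaching confluence, and no further agent was named. Nothing in the labels says that replicates of a line came from separate cultures, so p-values measure only the spread between these libraries, which may be technical.

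Mitochondrial DNA is copied into long transcripts that run around the circle from promoters on both strands. The tRNAs sit between the rRNAs and mRNAs, and cutting them out releases the other RNAs. The 13 mRNAs encode subunits of the respiratory chain and ATP synthase, the rRNAs build the mitochondrial ribosome and the tRNAs read its codons. Most mitochondrial mRNAs and both rRNAs receive A tails, of which the rRNA tails are short, whereas mature tRNAs end in CCA. Selection on polyA therefore captures the 3 classes unequally, and most values below compare libraries within a class. Read ratios and levels per length also set classes side by side. They describe reads in these libraries and not amounts of RNA in the cells.

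ANXA4 was examined first to check the labels. Its normalized read counts were 2821 and 3614 in control line 1, 3858 and 6773 in control line 2, and 235.6 and 234.4 in the line labelled KO guide 1. The line labelled KO guide 2 gave 3433 and 4142, within the range of the controls, so directions of KO against control refer to the labels. Recovered depth lay between 15784890 and 22631588 reads per library. The renal carcinoma markers fitted the labelled line in part: 10 of 13 exceeded a normalized read count of 100 in every library and PAX8 ranged from 2987 to 4476, whereas CA9 ranged from 2.07 to 24.8 and NDUFA4L2 stayed below 10 reads. Of 6 blood cell markers and of 6 endothelial and fibroblast markers, 4 each had at most 3 reads in every library, and no marker of these lists exceeded 19 reads. Summed normalized counts ran from 7.36 to 12.5 in control and 5.19 to 14.5 in KO-labelled libraries for blood, and from 7.74 to 26.0 and 3.91 to 8.27 for endothelium and fibroblasts. The library labelled KO guide 2 replicate 2 stood apart in mitochondrial content, with 13.8% of its reads from the 37 genes, and the main differences between KO-labelled and control lines are also given without it.

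Among the tRNAs, 4 genes held 94.1% to 97.8% of all tRNA reads in each library: TRNP, TRNN, TRNC and TRNY. Their gene sequences are shown because the tRNA results turn on them, together with TRNA, which lies 1 base from TRNN on the same strand, and TRNF, the first gene of the opposite strand, both of which had almost no reads. They read 5′ to 3′ on the gene's own strand in GRCh38, from the GENCODE release 29 transcripts, and capitals mark the anticodon, the 3 bases that pair with the codon. TRNP (proline, chrM:15956-16023, minus strand), TRNN (asparagine, chrM:5657-5729, minus), TRNC (cysteine, chrM:5761-5826, minus), TRNY (tyrosine, chrM:5826-5891, minus), TRNA (alanine, chrM:5587-5655, minus) and TRNF (phenylalanine, chrM:577-647, plus) read as follows.
TRNP: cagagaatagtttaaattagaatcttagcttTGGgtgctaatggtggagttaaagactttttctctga
TRNN: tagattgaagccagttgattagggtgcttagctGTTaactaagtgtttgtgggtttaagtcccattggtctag
TRNC: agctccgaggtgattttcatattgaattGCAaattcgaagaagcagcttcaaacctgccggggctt
TRNY: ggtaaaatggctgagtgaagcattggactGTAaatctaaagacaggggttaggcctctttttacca
TRNA: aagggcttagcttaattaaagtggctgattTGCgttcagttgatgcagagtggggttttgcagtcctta
TRNF: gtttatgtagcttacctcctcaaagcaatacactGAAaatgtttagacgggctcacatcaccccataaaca
All 4 abundant tRNA genes are annotated on the minus strand, as are ND6 and 8 of the 22 tRNAs in all. A gap of 31 bases, where synthesis of the light DNA strand is known to begin, separates TRNN and TRNC, and TRNP is the last gene before the control region. How reads were assigned to a strand is not given in the sources used here, so reads of these genes and of RNA from the opposite strand cannot be told apart.

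Of the 37 genes, 9 overlap a neighbour, which bears on how reads could be counted. The longest overlap joins ATP8 and ATP6, which encode subunits of ATP synthase and are carried on a shared mRNA. The sequences of ATP8 (chrM:8366-8572, plus strand) and of the first 60 bases of ATP6 (chrM:8527-8586, plus) are shown to make the overlap visible, with the 46 shared bases in capitals.
ATP8: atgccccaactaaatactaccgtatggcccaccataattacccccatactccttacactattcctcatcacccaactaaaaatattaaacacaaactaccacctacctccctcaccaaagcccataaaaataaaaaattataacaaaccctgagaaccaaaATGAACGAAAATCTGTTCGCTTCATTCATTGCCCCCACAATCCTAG
ATP6: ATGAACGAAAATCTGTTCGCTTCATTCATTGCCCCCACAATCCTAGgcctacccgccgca
ND4L and ND4, both subunits of complex I, overlap by 7 bases, and ATP6 and COX3 by 1. How reads over shared bases were treated is not given in the sources used here, so the values of these pairs are uncertain, and by how much was not tested. In 6 of the 13 mRNAs (ND1, ND2, COX3, ND3, ND4 and CYTB) the annotated length was no multiple of 3. Such genes lack a whole stop codon in the DNA, and polyadenylation of the mRNA is known to complete it.

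Levels of different genes were compared per length, as reads per kilobase (1000 bases) in 1000000 counted reads, known as RPKM. The order is one of reads after selection on polyA. The place of an rRNA among the mRNAs therefore cannot be read as its amount in the cells. COX1, the catalytic core subunit of cytochrome c oxidase, had the highest median of the 8 libraries at 9154, with a range of 6457 to 18464. RNR2, the large-subunit rRNA, followed at 9136, and COX2, another core subunit of that enzyme, at 8671. These 3 were not ordered reliably: COX1 exceeded RNR2 in 4 of 8 libraries, and RNR2 exceeded COX2 in 4 of 8. COX3 (median 7119) and ATP6 (6963) came next and changed places in 2 libraries, and ND4, a subunit of complex I, had a median of 5587. Below ND4 the order ran over ATP8 (2906), ND3 (2825), ND4L (2713), CYTB (2690), ND2 (2519), ND1 (2486) and ND6 (1983). None of these neighbouring pairs kept its order in all 8 libraries. ATP8 and ATP6 are carried on a shared mRNA, yet their medians were 2906 and 6963. RPKM of genes that overlap a neighbour therefore cannot be read as RNA levels. CYTB encodes cytochrome b of complex III, and the ND genes encode subunits of complex I.

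The bottom of the order was fixed in every library. ND5, the longest of the mRNAs, ranked 14th of the 15 genes in 8 of 8 libraries (median 1145), and RNR1, the small-subunit rRNA, ranked 15th (median 636). Over all libraries the ranges of neighbouring genes overlapped. Within a library ND4 was at least 1.78 times as high as ATP8, and ND6 was 1.64 to 1.97 times as high as ND5. RNR2 ranked from 1 to 6, and ND1 and ND6 from 8 to 13.

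**Figure D1:**
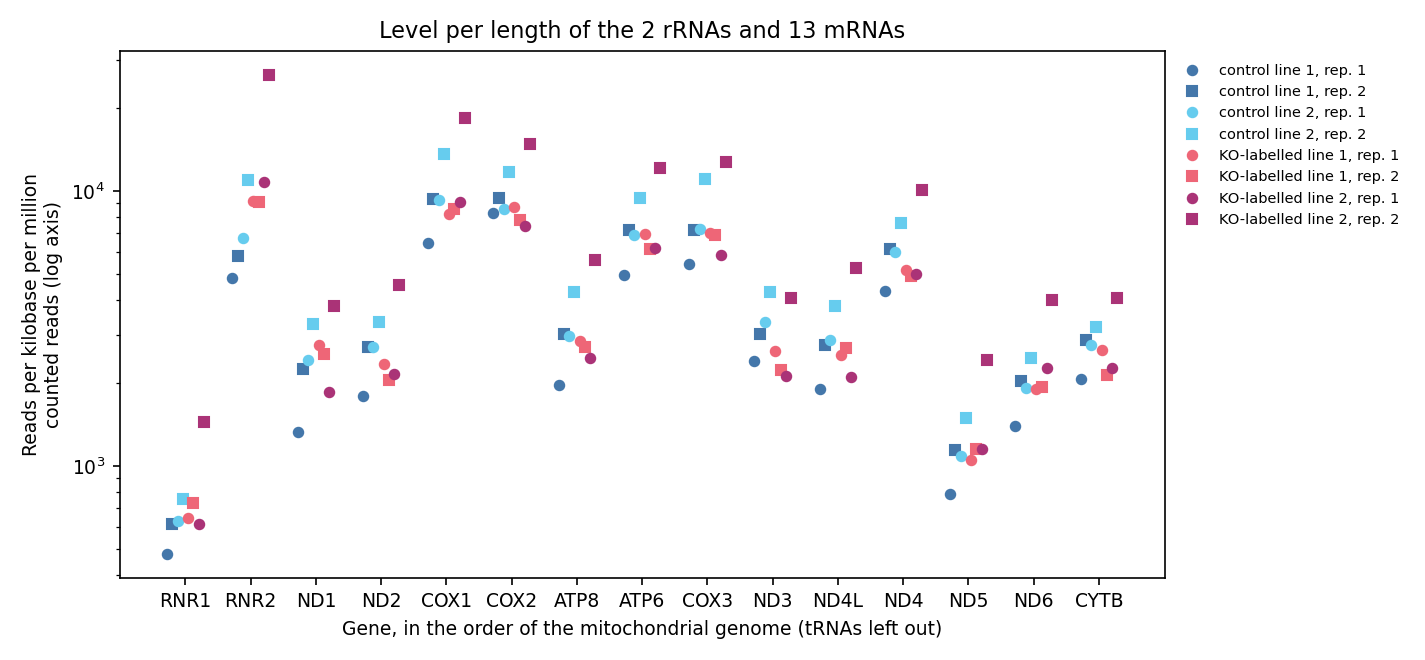
RPKM (log axis) of the 2 rRNAs and 13 mRNAs in genome order, with 1 point per library, circles for replicate 1 and squares for replicate 2. COX1, RNR2 and COX2 lie at the top and RNR1 at the bottom, and the library labelled KO guide 2 replicate 2 is the highest point for 14 of the genes and second to control line 2 for ND3.

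As a share of each library's counted reads, the 37 genes together took 4.67% and 6.35% in control line 1 (replicates 1 and 2), then 6.39% and 9.05% in control line 2. They took 6.43% and 6.23% in the line labelled KO guide 1, and 6.40% and 13.8% in the line labelled KO guide 2. The 2 groups overlapped, and 3 of the 4 KO-labelled libraries lay between 6.23% and 6.43%. Means were 6.62% ± 1.81 in the control group and 8.21% ± 3.71 in the KO-labelled group (SD, n = 4 libraries from 2 lines in each). Without the library labelled KO guide 2 replicate 2 the KO-labelled mean was 6.36% ± 0.108 (SD, n = 3), below the control mean. The KO-labelled minus control difference was 0.884 percentage points among replicates 1 and 2.297 among replicates 2. In bulk RNA a larger share cannot be told apart from less of other RNA per cell or from a different mix of cells. Wilson 95% intervals of these shares, which cover counting error only, were narrow beside the spread between libraries (for the lowest share 4.66% to 4.68%).

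The mRNAs made up 68.6% to 84.6% of the mitochondrial reads. Their share of the library was 3.86% and 5.37% in control line 1, 5.27% and 7.25% in control line 2, 4.92% and 4.72% in the line labelled KO guide 1, and 4.65% and 9.44% in the line labelled KO guide 2. The group means were 5.44% ± 1.39 for control and 5.93% ± 2.34 in KO-labelled libraries (± SD, 4 libraries each), and the groups overlapped. Without the library labelled KO guide 2 replicate 2, the KO-labelled mean was 4.76% ± 0.142 (SD, n = 3).

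The rRNAs took 0.800% and 0.962% of reads in control line 1, 1.11% and 1.78% in control line 2, 1.49% and 1.49% in the line labelled KO guide 1, and 1.73% and 4.26% in the line labelled KO guide 2. The single control library above the lowest KO-labelled value was replicate 2 of control line 2. The means were 1.16% ± 0.431 for control and 2.24% ± 1.35 in KO-labelled libraries (± SD, 4 libraries each), and the latter was 1.57% ± 0.139 (n = 3) without the library labelled KO guide 2 replicate 2. The tRNAs took between 0.00886% and 0.0653% of reads, with the lowest value in replicate 1 of control line 1 and the highest in the library labelled KO guide 2 replicate 2. The KO-labelled minus control difference in the tRNA share was 0.0159 percentage points, and 0.00477 without that library.

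**Figure D2:**
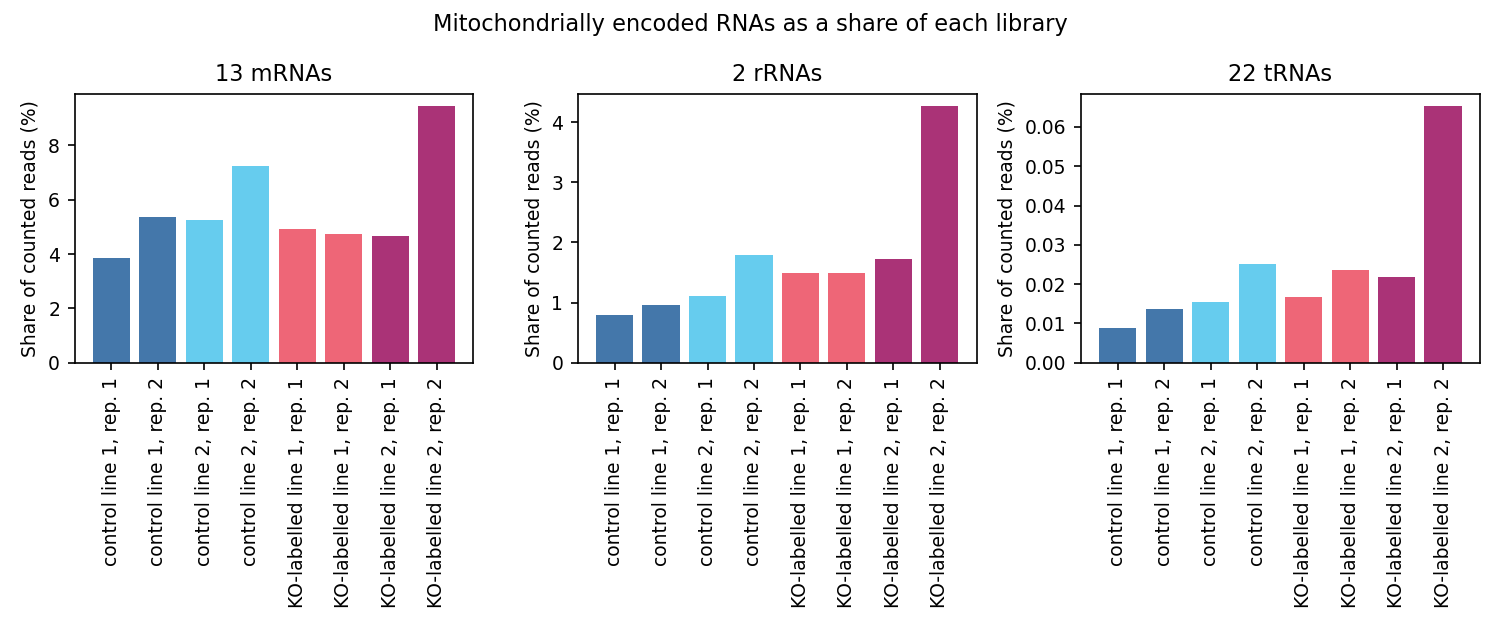
Share of counted reads (%) taken by the 13 mRNAs, the 2 rRNAs and the 22 tRNAs in each of the 8 libraries, each class on its own axis starting at 0. The library labelled KO guide 2 replicate 2 is highest in all 3 classes (9.44%, 4.26% and 0.0653%), and the other KO-labelled libraries lie within the control range for mRNAs.

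RNR2 carried most of the rRNA reads. Its normalized read counts were 130449 and 165381 in control line 1, 185796 and 319681 in control line 2, 253530 and 253673 in the line labelled KO guide 1, and 292314 and 785700 in the line labelled KO guide 2. The 2 lowest libraries were those of control line 1, but replicate 2 of control line 2 exceeded 3 of the KO-labelled libraries, so the groups overlapped. RNR1 had 7895 and 10738 in control line 1, 10613 and 13502 in control line 2, 10879 and 12539 in the line labelled KO guide 1, and 10252 and 26272 in the line labelled KO guide 2. Apart from the last library, RNR1 values of the KO-labelled lines lay within the control range. The log2 fold change of KO-labelled against control lines was 0.88 for RNR2 (SE 0.48, limma adjusted p = 0.533) and 0.40 for RNR1 (SE 0.37, limma adjusted p = 0.759), and neither passed the threshold of 0.05. The values without the library labelled KO guide 2 replicate 2 were 0.50 for RNR2 (limma adjusted p = 0.510) and 0.079 for RNR1 (limma adjusted p = 0.896).

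Of the 37 genes, 24 passed the filter on low values (a normalized read count of 10 or more in 2 or more libraries): all 13 mRNAs, both rRNAs and 9 tRNAs. Between KO-labelled and control lines limma called 0 of these 24, against 0.235% of the 14040 genes tested (0.128% higher and 0.107% lower), and 0 of the 37 had groups that did not overlap, against 10.6% of the 14040. At an unadjusted p under 0.05 there was 1 of the 24, TRND, against 11.5% of all genes. edgeR and DESeq2, which here took libraries of a line as independent, called 0 members, against 1.32% and 5.96% of all genes. Of the 24 log2 fold changes 22 were positive, and the medians were 0.10 for the mRNAs, 0.64 for the rRNAs and 0.63 for the tRNAs beside 0.00 for all genes tested. When the library labelled KO guide 2 replicate 2 was left out, 23 members passed the filter and 13 of them were positive, with medians of -0.23 for the mRNAs (3 of 13 positive), 0.29 for the rRNAs and 0.29 for the tRNAs, and limma called 0.

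The ratio of rRNA to mRNA reads separated the groups, whereas the normalized read counts of single members did not. It was 0.207 and 0.179 in control line 1, 0.211 and 0.246 in control line 2, 0.303 and 0.315 in the line labelled KO guide 1, and 0.372 and 0.451 in the line labelled KO guide 2. Every KO-labelled library lay above every control library, and the order of the lines was the same in both replicates. Libraries of a line are not independent, so this is a separation of 2 lines from 2 lines. The highest line was the line labelled KO guide 2, whose ANXA4 counts lay within the control range. The mean was 0.211 ± 0.0274 for control and 0.360 ± 0.0677 in the KO-labelled group (SD, 4 libraries from 2 lines per group). These SDs do not measure the spread between lines of 1 kind. The KO-labelled mean was 0.330 ± 0.0369 (n = 3) without the library labelled KO guide 2 replicate 2. The difference of the groups was 0.129 among replicates 1 and 0.171 among replicates 2. With the genes that overlap a neighbour left out, which takes 5 mRNAs from the denominator, the difference was 0.233 in place of 0.150. No test was made of this ratio, which sums over genes chosen with earlier results known.

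RNR2 carried nearly all of the difference in this ratio. RNR2 reads were 16.8% to 23.6% of mRNA reads in the control libraries and 29.1% to 43.7% in the KO-labelled ones. RNR1 reads were 0.996% to 1.18% of mRNA reads in control and 1.25% to 1.48% in KO-labelled libraries. The groups, of 2 lines each, overlapped for neither rRNA on this scale, and this was not tested. On normalized read counts the groups did not overlap for 10.6% of all genes tested. Set against COX1 alone, RNR2 gave a ratio of 0.626 to 0.811 in control and 1.07 to 1.45 in KO-labelled libraries. The balance of the 2 rRNAs varied as well: reads of RNR2 per read of RNR1 were 16.5 and 15.4 in control line 1, 17.5 and 23.7 in control line 2, 23.3 and 20.2 in the line labelled KO guide 1, and 28.5 and 29.9 in the line labelled KO guide 2. Here replicate 2 of control line 2 lay within the KO-labelled range.

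**Figure D3:**
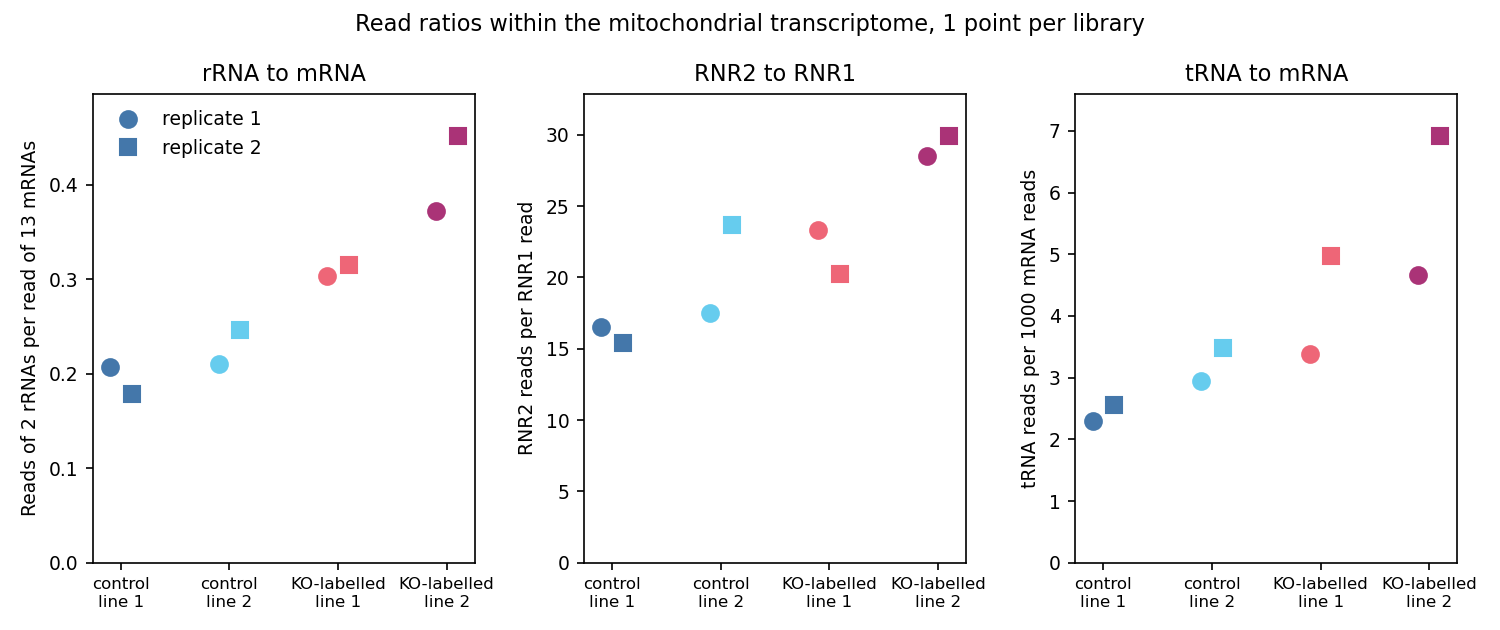
Read ratios within the mitochondrial transcriptome with 1 point per library: rRNA reads per mRNA read, RNR2 reads per RNR1 read, and tRNA reads per 1000 mRNA reads, all axes from 0. The rRNA to mRNA ratio runs from 0.179 to 0.246 in the control libraries and from 0.303 to 0.451 in the KO-labelled libraries, whereas the groups overlap in the other 2 panels.

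On normalized read counts, where the rRNAs overlapped between the groups, core subunits of the respiratory chain overlapped as well. COX1 had 172272 and 264302 in control line 1, 251826 and 394148 in control line 2, 224154 and 237108 in the line labelled KO guide 1, and 244716 and 542524 in the line labelled KO guide 2. ND4 had 103039 and 154465, then 146628 and 197471 in the control lines, 125972 and 120621 in the line labelled KO guide 1, and 119884 and 265261 in the line labelled KO guide 2. For both genes 3 of the 4 KO-labelled libraries lay inside the control range. The log2 fold changes of KO-labelled against control lines were 0.16 for COX1 (SE 0.42, limma adjusted p = 0.940) and 0.02 for ND4 (SE 0.37, limma adjusted p = 0.993). They were -0.14 for COX1 and -0.27 for ND4 without the library labelled KO guide 2 replicate 2.

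CYTB had 40676 and 60095 in control line 1, 55421 and 67978 in control line 2, 53243 and 43622 in the line labelled KO guide 1, and 45064 and 88745 in the line labelled KO guide 2. ATP6 had 58311 and 90025, then 83536 and 120295 in the control lines, 84356 and 75038 in the line labelled KO guide 1, and 73793 and 156534 in the line labelled KO guide 2. ATP8, which shares its mRNA, had 7023 and 11409, then 10895 and 16657 in the control lines, 10407 and 10013 in the line labelled KO guide 1, and 8925 and 22172 in the line labelled KO guide 2. In all 3 genes the lowest library was replicate 1 of control line 1 and the highest was the library labelled KO guide 2 replicate 2. Over the 13 mRNAs the log2 fold change of KO-labelled against control lines ran from -0.25 (ND3) to 0.33 (ND6), and the smallest adjusted p was 0.796 (limma). With the library labelled KO guide 2 replicate 2 left out it ran from -0.50 (ND3) to 0.068 (ND6), and ND5 went from 0.31 to 0.0022.

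ND6 is the only mRNA on the minus strand. It is rich in G (35.6% of its bases, against 6.28% to 16.2% in the 12 others). Its normalized read counts were 12716 and 19592 in control line 1, 17805 and 24194 in control line 2, 17648 and 18119 in the line labelled KO guide 1, and 20761 and 40052 in the line labelled KO guide 2. The groups overlapped, with both libraries of the line labelled KO guide 1 close to replicate 1 of control line 2.

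As a share of the reads of all 13 mRNAs, 3 genes had groups that did not overlap, ND3, ND5 and ND6, and the other 10 overlapped. This count was not tested, and each group held only 2 lines, whose libraries are not independent. The scale exists for these 13 genes only, and on normalized read counts the groups did not overlap for 10.6% of all genes tested. ND3 made up 2.14%, 1.95%, 2.18% and 2.04% of mRNA reads in the control libraries and 1.84%, 1.63%, 1.58% and 1.49% in the KO-labelled libraries, all lower. ND5 made up 3.70%, 3.84%, 3.73% and 3.72% in control and 3.87%, 4.42%, 4.48% and 4.67% in KO-labelled libraries, all higher, with 3.84% and 3.87% in the nearest libraries. ND6 made up 1.90%, 1.99%, 1.91% and 1.79% in control and 2.02%, 2.14%, 2.55% and 2.23% in KO-labelled libraries, all higher. The means were 2.08% ± 0.105 and 1.64% ± 0.150 for ND3, 3.75% ± 0.0638 and 4.36% ± 0.346 for ND5, and 1.90% ± 0.0845 and 2.24% ± 0.227 for ND6 (control and KO-labelled, SD, n = 4 each). The KO-labelled means without the library labelled KO guide 2 replicate 2 were 1.69% ± 0.140 for ND3, 4.26% ± 0.338 for ND5 and 2.24% ± 0.278 for ND6 (SD, n = 3). Of the other 10, ND1 took 3.27% to 5.34% of mRNA reads, COX2 took 10.7% to 14.7%, COX1 took 25.7% to 30.2%, ND4 took 14.3% to 15.7% and ATP6 took 8.70% to 9.67%.

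**Figure D4:**
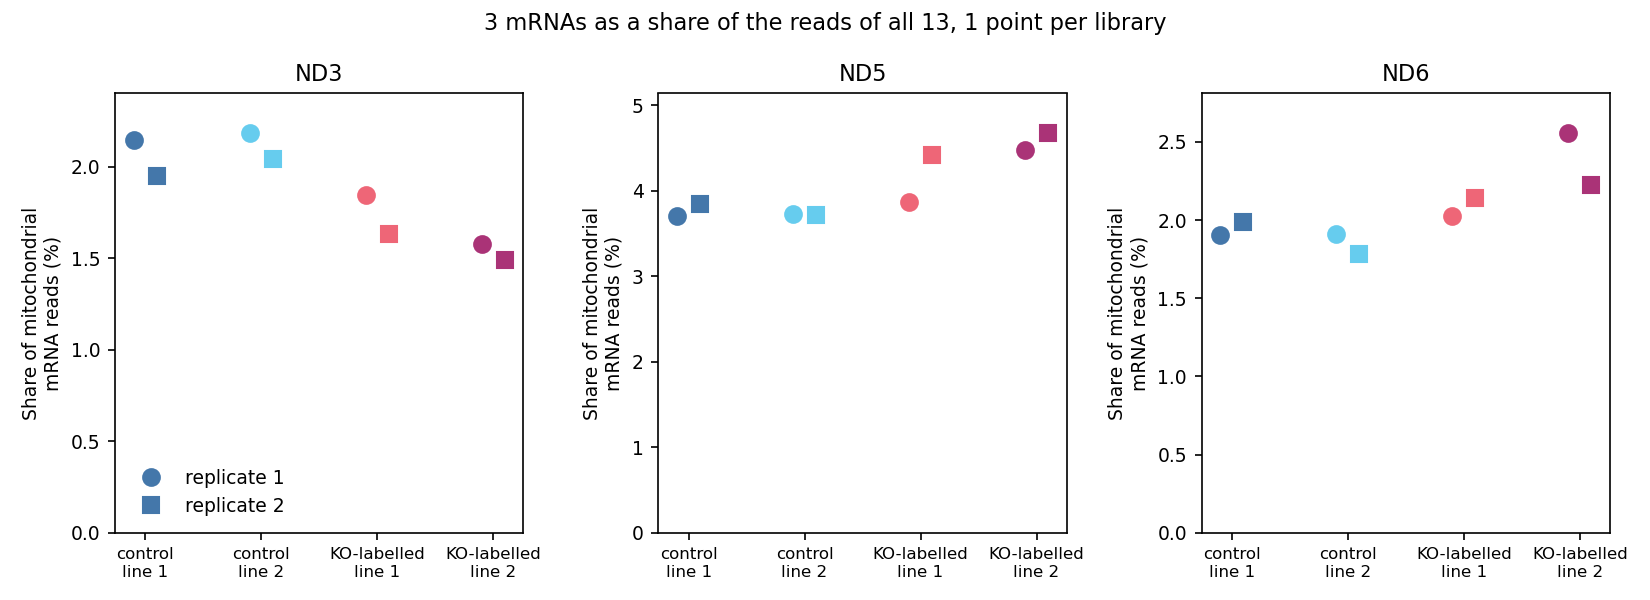
ND3, ND5 and ND6 as a percentage of the reads of the 13 mRNAs, with 1 point per library, circles for replicate 1, squares for replicate 2 and axes from 0. The KO-labelled libraries lie below the control libraries for ND3 (at most 1.84% against at least 1.95%) and above them for ND5 and ND6.

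The tRNA for proline, TRNP, had the most tRNA reads. Its normalized read counts were 689 and 1205 in control line 1, 1103 and 1987 in control line 2, 1044 and 1997 in the line labelled KO guide 1, and 2390 and 8191 in the line labelled KO guide 2. Both libraries of the line labelled KO guide 2 exceeded all others, whereas the line labelled KO guide 1 lay near the control range. Between KO-labelled and control lines the log2 fold change was 1.12 (SE 0.63, limma adjusted p = 0.556), and 0.60 without the library labelled KO guide 2 replicate 2 (limma adjusted p = 0.558). TRNP supplied 63.0% and 65.9% of tRNA reads in the line labelled KO guide 2 and 35.3% to 47.8% in the 6 other libraries.

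TRNN, the next most abundant, had 439 and 688 in control line 1, 791 and 1285 in control line 2, 850 and 994 in the line labelled KO guide 1, and 700.2 and 2036 in the line labelled KO guide 2. Of the plus-strand tRNAs, TRNL1, a leucine tRNA that lies directly after RNR2, had the most reads, 474 over all libraries. Its normalized read counts were 15.6 and 39.5 in control line 1, 53.3 and 88.4 in control line 2, 83.8 and 71.6 in the line labelled KO guide 1, and 23.8 and 96.6 in the line labelled KO guide 2. For both tRNAs the groups overlapped widely. Per 1000 mRNA reads, all tRNAs together had 2.29 and 2.56 reads in control line 1, 2.95 and 3.48 in control line 2, 3.39 and 4.97 in the line labelled KO guide 1, and 4.67 and 6.91 in the line labelled KO guide 2. The library labelled KO guide 1 replicate 1 lay below replicate 2 of control line 2, so these groups overlapped. The mean of the 4 control libraries was 2.82 ± 0.517 (SD) and that of the 4 KO-labelled ones 4.99 ± 1.46 (SD), or 4.34 ± 0.842 (SD, n = 3) without the library labelled KO guide 2 replicate 2.

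Single lines were compared in a model with a mean per line and a shared spread, and both lines labelled KO were set against the same control libraries. In the line labelled KO guide 1, the only line with low ANXA4, limma called 0 of the 24 members, against 7.01% of all genes tested (3.82% higher and 3.18% lower). TRND, the aspartate tRNA, had the smallest unadjusted p and was the only member under 0.05, as were 3363 of the 14040 genes tested. edgeR and DESeq2 called 0 members. Its normalized read counts were 3.68 and 8.32 in control line 1, 6.88 and 22.7 in control line 2, 21.9 and 29.04 in the line labelled KO guide 1, and 15.5 and 26.6 in the line labelled KO guide 2. These values rest on 4 to 28 reads per library. The log2 fold change in the line labelled KO guide 1 was 1.47 (SE 0.52, limma adjusted p = 0.130), and a fit that took the replicate number as a block called TRND (limma adjusted p = 0.0127) beside 24.4% of all genes. Of the 13 mRNAs, 12 had log2 fold changes below 0 in this line (lowest in ND3, -0.41) and ND1 had 0.25, and none was called.

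In the line labelled KO guide 2, limma called 1 of the 24 members, TRNP, higher by 1.93 on the log2 scale (SE 0.49, adjusted p = 0.0377), where 11.2% of all genes tested were called (4.54% higher and 6.67% lower). RNR2 followed with 1.34 (SE 0.39, limma adjusted p = 0.0593), and ND6 with 0.67 (SE 0.28, limma adjusted p = 0.160). The TRNP call was lost when any 1 of 6 libraries was left out: replicate 1 or 2 of control line 1, replicate 1 of control line 2, either library labelled KO guide 1, or the library labelled KO guide 2 replicate 2. Without the last of these the log2 fold change was 1.04 (limma adjusted p = 0.186), and over the other 5 the adjusted p ran from 0.0523 to 0.105. Without the library labelled KO guide 2 replicate 1, its replicate 2 alone stood for the line, and the log2 fold change of TRNP was 2.82.

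With the replicate number as a block, 8 members rose in the line labelled KO guide 2, while 27.4% of all genes were called in either direction in that fit. They were RNR1 (limma adjusted p = 0.0213), RNR2 (0.00183), ND5 (0.0180), ND6 (0.00641), TRNN (0.0197), TRNC (0.0109), TRND (0.0326) and TRNP (9.84e-06). The fold changes are those of the fit without the block. With no block and the library labelled KO guide 2 replicate 2 left out, the line had a single library and 2 of the 13 mRNAs were positive. The log2 fold change was then 0.20 for ND6 and -0.034 for RNR1. RNR2 was also called by edgeR (adjusted p = 0.0276) and DESeq2 (0.0208) and under scaling to equal totals of all genes (limma adjusted p = 0.0445) or of nuclear genes (0.0490). Without replicate 2 of this line its log2 fold change was 0.63 (limma adjusted p = 0.275).

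Lines of the same kind also differed. Between control line 2 and control line 1, limma called 0 of the 24, against 2.13% of all genes (1.05% higher and 1.08% lower). At an unadjusted p under 0.05 there were 2 (TRNC and TRNT), beside 2178 of the 14040 genes tested, and edgeR and DESeq2 called 0. All 24 log2 fold changes were positive, with a median of 0.57 beside 0.00 for all genes. With the replicate block 5 tRNAs were called higher in control line 2: TRNL1, TRNN, TRNC, TRNT and TRNP, with adjusted p from 0.00716 (TRNC) to 0.0375 (TRNL1) in limma and 12.5% of all genes called. Between the lines labelled KO guide 2 and KO guide 1, limma called 0 of the 24, against 6.94% of all genes (2.41% higher and 4.53% lower). At an unadjusted p under 0.05 there was 1 (TRNP), beside 3394 of the 14040 genes tested, and edgeR and DESeq2 called 0. The block called 4 here, RNR2 (limma adjusted p = 0.0345), ND5 (0.0355), ND6 (0.0141) and TRNP (0.000159), all higher in the line labelled KO guide 2, with 24.5% of all genes called. With no block, RNR2 differed by 0.92 and TRNP by 1.61 on the log2 scale, and by 0.20 and 0.73 when the library labelled KO guide 2 replicate 2 was left out. Without the library labelled KO guide 2 replicate 1 and with no block, its replicate 2 alone stood for that line. The differences were then 1.63 for RNR2 and 2.50 for TRNP.

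The comparison of replicate 2 with replicate 1, with each line as its own control, gave the most calls. Of the 24 members limma called 14 higher and 0 lower, where 17.6% of all genes were called (8.97% higher and 8.62% lower). The 14 comprised 7 of 13 mRNAs (ND1, COX1, ATP8, COX3, ND4L, ND5 and ND6), 2 of 2 rRNAs and 5 of 9 tRNAs (TRNL1, TRNN, TRNC, TRNT and TRNP). The median log2 fold change was 0.52 for the mRNAs, 0.61 for the rRNAs and 0.80 for the tRNAs, beside 0.00 for all genes tested. Of the 24 members, 12 were higher in replicate 2 in 4 of 4 lines and the other 12 in 3 of 4. The share of all mitochondrial reads was 1.36 times as high in replicate 2 in control line 1, 1.42 times in control line 2, 0.969 times in the line labelled KO guide 1 and 2.15 times in the line labelled KO guide 2.

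Of the members called between replicates, TRNT and TRNP had the largest log2 fold changes. TRNT, a threonine tRNA, stood at 0.919 and 10.4 normalized reads in control line 1, 13.8 and 22.7 in control line 2, 8.61 and 12.4 in the line labelled KO guide 1, and 7.24 and 27.8 in the line labelled KO guide 2. It was higher in replicate 2 in 4 of 4 lines, from 1 to 23 reads per library, and its rise, 1.38 on the log2 scale (SE 0.39, limma adjusted p = 0.0317), was the largest among the members called. With a pseudocount of 10 in place of 1 it was 0.69, below TRNP, and the call was lost in 8 of 16 refits. TRNP rose by 1.09 (SE 0.13, limma adjusted p = 0.000702), also in 4 of 4 lines. RNR2 rose by 0.64 (SE 0.20, adjusted p = 0.0473), RNR1 by 0.59 (SE 0.15, adjusted p = 0.0209), COX1 by 0.62 (SE 0.17, adjusted p = 0.0286), ATP8 by 0.64 (SE 0.16, adjusted p = 0.0181) and ND6 by 0.51 (SE 0.12, adjusted p = 0.0169) in limma. ND4 (0.52, SE 0.17, adjusted p = 0.0519), ATP6 (0.52, SE 0.17, adjusted p = 0.0503) and CYTB (0.39, SE 0.16, adjusted p = 0.117) did not pass the threshold.

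These calls depended on which lines were in the fit. Leaving out either library of a line removes that line from the comparison, and the count of members called was then 6 without control line 1, 2 without control line 2, 21 without the line labelled KO guide 1 and 6 without the line labelled KO guide 2. TRNN and TRNP were called in all 8 of these fits, with log2 fold changes from 0.52 to 0.96 for TRNN and from 0.86 to 1.19 for TRNP. RNR1, ND4L, ND5 and TRNC were called in 6 of the 8, with RNR1 as low as 0.33. RNR2, ND1, COX1, ATP8, COX3, ND6, TRNL1 and TRNT were called only in the 2 without the line labelled KO guide 1, and RNR2 was as low as 0.38. edgeR called 16 members and DESeq2 called 6, and no member was called lower by either. The share of all genes called moved between fits as well. Without the library labelled KO guide 2 replicate 2 it was 4.31% higher and 3.89% lower, from 8.97% and 8.62%. For the other fits in this paragraph that share is not given here. In composition, the share of mRNA reads from ND3 and from COX2 was lower in replicate 2 in 4 of 4 lines and that of COX1 was higher in 4 of 4. The labels do not say what a replicate number stands for, and its part in these differences cannot be told apart from that of culture, extraction or sequencing.

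**Figure D5:**
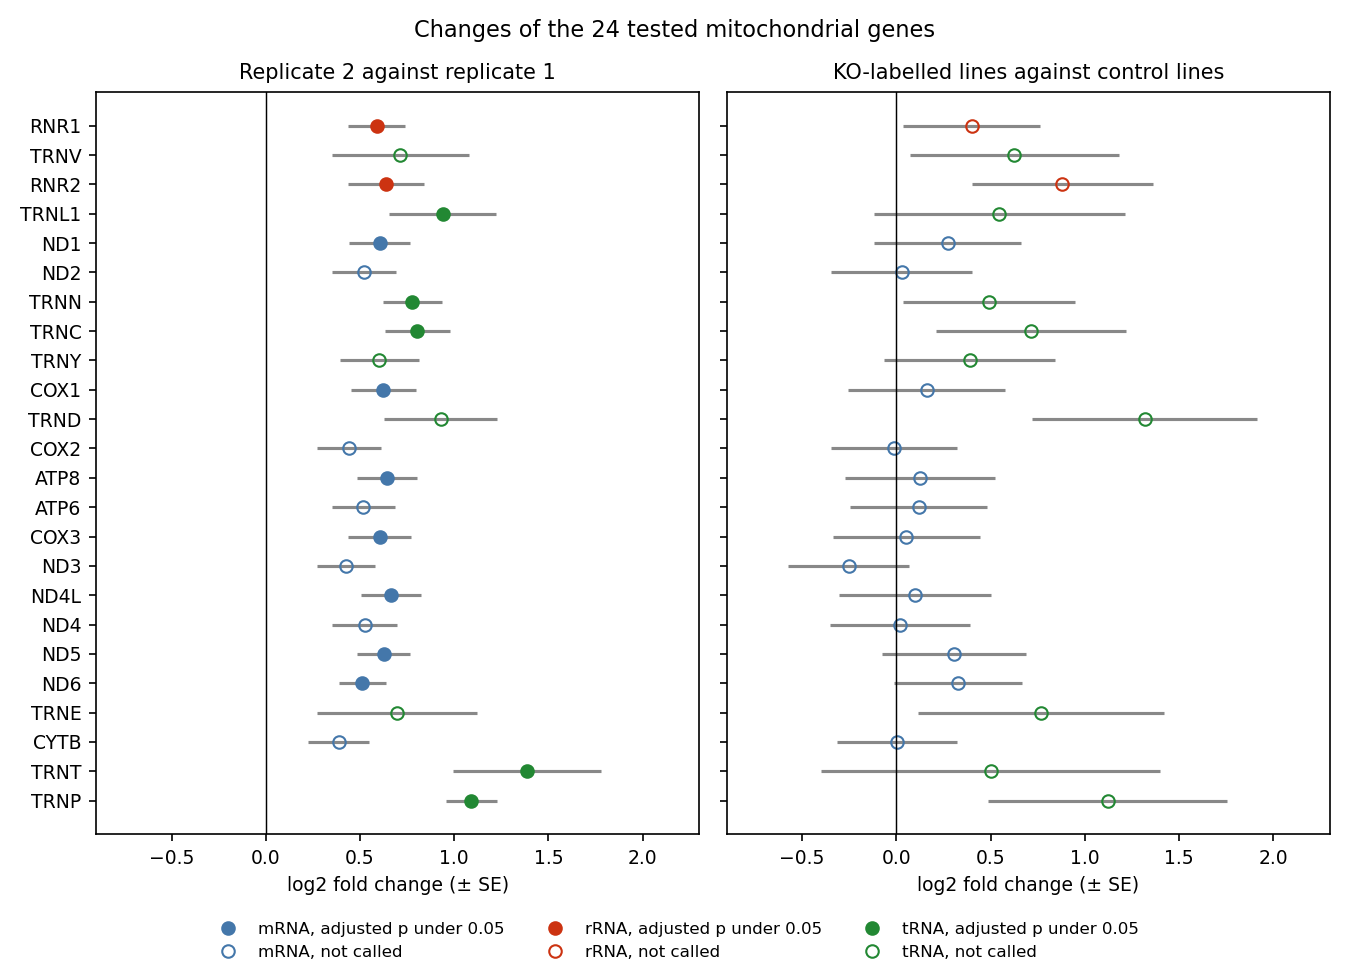
Log2 fold changes with standard errors of the 24 tested genes in genome order, for replicate 2 against replicate 1 (left) and KO-labelled against control lines (right), with filled points for an adjusted p under 0.05 in limma. On the left all 24 lie above 0 and 14 are filled, and on the right none is filled and 22 lie above 0 with wider errors (13 of 23 when the library labelled KO guide 2 replicate 2 is left out).

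The nuclear genes that copy, transcribe, process and translate mitochondrial RNA were examined as 6 lists. Between KO-labelled and control lines limma called 0 of their 171 tested genes, and 11 (6.43%) had an unadjusted p under 0.05 against 11.5% of all genes. With libraries of a line taken as independent, edgeR called 0 against 1.32% of all genes. DESeq2 called 7 (4.09%) in the same way, against 5.96% of all genes. The median log2 fold changes of the lists ran from -0.11 (replication and maintenance) to 0.12 (aminoacyl-tRNA synthetases), beside 0.00 for all genes tested. TFAM, which packages mitochondrial DNA and starts its transcription, stood at 1443 and 1565 normalized reads in control line 1, 1377 and 1573 in control line 2, 1386 and 1497 in the line labelled KO guide 1, and 1338 and 1465 in the line labelled KO guide 2. Its groups overlapped, and it was not called in any of the 6 comparisons. POLRMT, the mitochondrial RNA polymerase, ranged from 1172 to 1831 and was not called either, and PPARGC1A, a coactivator of mitochondrial genes, did not pass the filter on low values.

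Between replicates, calls in the nuclear lists went in both directions, with medians near the 0.00 of all genes, where 8.97% of all genes were called higher and 8.62% lower. Of 15 tested genes of mitochondrial transcription 1 rose in replicate 2 and 0 fell (limma, median log2 fold change 0.06). The riser was GABPB1, a subunit of the activator NRF-2, with 0.43 (SE 0.09, adjusted p = 0.00951). Of 23 genes of replication and maintenance 3 rose and 2 fell (median 0.05), led by MGME1, a mitochondrial exonuclease, with 0.49, and LIG3, a DNA ligase, with -0.35. Of 35 genes of RNA processing and decay 2 rose and 1 fell (median 0.03). PNPT1, a subunit of the mitochondrial RNA degradosome, rose by 0.31 (SE 0.08, limma adjusted p = 0.0228) and PTCD2, a pentatricopeptide repeat protein, fell by 0.44. Of 21 aminoacyl-tRNA synthetases 0 rose and 2 fell (median -0.11), with the largest fall in GARS1, the glycyl-tRNA synthetase, at -0.45.

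The proteins of the mitochondrial ribosome had 5 of 49 large-subunit genes higher and 0 lower in replicate 2 (median 0.10), led by MRPL32 with 0.51. Of 29 small-subunit genes 3 rose and 2 fell (median 0.04), led by MRPS6 with 0.49 and MRPS14 with -0.31. Without the library labelled KO guide 2 replicate 2, which leaves that line out of the comparison, the 6 lists together had 7 genes higher and 1 lower, where 4.31% of all genes were higher and 3.89% lower.

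The nuclear lists were also counted in the single lines. In the line labelled KO guide 1, 3 of 49 large-subunit and 2 of 29 small-subunit ribosomal protein genes were lower than in the controls (3.18% of all genes were called lower), with medians of -0.25 and -0.21 and the largest falls in MRPL36 (-0.58) and MRPS26 (-0.93). With the replicate block 16 and 8 of them were lower and 0 and 1 higher, where 11.4% of all genes were lower and 13% higher. Without the library labelled KO guide 2 replicate 2 the counts lower were 6 and 2, where 4.3% of all genes were lower. RRM2B, a ribonucleotide reductase subunit, rose by 0.90 and AARS2, the mitochondrial alanyl-tRNA synthetase, fell by 0.52. In the line labelled KO guide 2, 4 of 35 RNA processing genes were lower and 0 higher (6.67% of all genes were called lower), with the largest fall in NSUN3, an RNA methyltransferase acting on a mitochondrial tRNA, at -0.97. The block gave 8 lower and 1 higher of these 35, where 14.9% of all genes were lower. Their median log2 fold change was -0.08, and -0.11 without replicate 2 of this line, which leaves it a single library. EXOG, a mitochondrial nuclease, fell by 1.20 and TYMP, thymidine phosphorylase, rose by 0.70 in that line, and the largest changes among ribosomal proteins were MRPL51 (0.48), MRPL3 (-0.77) and MRPS22 (-0.78). MRPL51 also differed between the control lines, by 0.74 in favour of control line 2 (SE 0.13, limma adjusted p = 0.0337).

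LRPPRC, which binds and stabilises mitochondrial mRNAs, stood at 3542 and 3787 normalized reads in control line 1, 3998 and 3876 in control line 2, 4496 and 4371 in the line labelled KO guide 1, and 3161 and 3206 in the line labelled KO guide 2. The line labelled KO guide 1 was highest and the line labelled KO guide 2 lowest, with the controls between them. LRPPRC was lower in the latter than in the former when the KO-labelled lines were compared directly (log2 fold change -0.48, SE 0.12, limma adjusted p = 0.0464), and neither line was called against the controls. Between those 2 lines MRPL39 (0.88) and MRPS26 (1.07) led 3 large-subunit and 3 small-subunit genes that were higher in the line labelled KO guide 2 (2.41% of all genes were higher), while EXOG (-0.89), FASTKD2 (-0.59), an RNA-binding protein of the mitochondrial matrix, and MARS2 (-0.64), the mitochondrial methionyl-tRNA synthetase, were the largest falls of their lists. The medians of the large and small ribosomal subunits were 0.35 and 0.26 in this comparison. With the replicate block 22 of 49 large-subunit genes were higher and 1 lower, and 7 of 29 small-subunit genes were higher and 1 lower, where 10.5% of all genes were higher. Without the library labelled KO guide 2 replicate 2 and with no block, 0 large-subunit genes and 1 small-subunit gene were called higher, where 0.79% of all genes were. These fits of the nuclear lists with the block and without that library were chosen after the data had been seen.

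The 13 members that did not pass the filter were all tRNAs, with at most 14 reads in any library. The 18 tRNAs other than TRNP, TRNN, TRNC and TRNY had 0 to 107 reads each and 57 to 224 reads in sum per library, so differences among them were mostly not detectable at this depth. TRNF had 0 to 7 reads per library and TRNA had 0 to 3. Nuclear copies of RNR2 could take reads from it or lend reads to it: 10 MTRNR2L genes were in the table, 5 of them had reads, and their sum was 26 to 91 reads per library, where RNR2 itself had at least 141882.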

How the data were processed

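PolyA-selected RNA of 8 A-498 libraries was sequenced. The authors deposited a normalized signal per gene on a linear scale, which per the file headers came from featureCounts counts. The submitters' processing notes name fastp 0.23.2, HISAT2 2.2.1, featureCounts 2.0.1, DESeq2 2.11.40.8 and the build GRCh38, and strand use and the treatment of reads over 2 genes are not given in the sources used here. Every value above 0 (100%, tolerance 1e-06) was a whole multiple of its column's smallest value, so whole reads were recovered by multiplying back, and shares, ratios and levels per length were computed from them.

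Gene names and coordinates came from the RefSeq table of GRCh38.p14, and strands and sequences from GENCODE release 29, where all 37 members had the same start and end. Replicate numbers and groups were taken from the titles.

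Tests used limma 3.58.1 (R 4.3.3) with a mean-variance trend on the log2 of the deposited signal plus 1, over the 14040 genes that reached a normalized read count of 10 in 2 or more libraries. Fold changes are on that scale, which understates changes of low genes. Adjusted p is Benjamini-Hochberg over all genes tested, and a call is an adjusted p under 0.05. The correlation of libraries of a line was 0.33 (duplicateCorrelation) in the comparison of KO-labelled with control lines. Single lines were compared with a mean per line, and replicates with the line as a block. The limma procedure was tested on simulated data.

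Alternatives were edgeR 4.0.16 and DESeq2 1.42.0 on recovered reads, and other pseudocounts, filters and scalings. Each library was also left out, and the replicate number was taken as a block. Between KO-labelled and control lines edgeR called 186 genes and DESeq2 837, beside 33 by limma. Those edgeR and DESeq2 fits had no term for the line. They took libraries of a line as independent, which limma did not. The replicate difference correlated across genes between lines at Pearson's r 0.285 to 0.501 in all 6 pairs of lines, above 0.1, so the numbers were taken as pairing the samples. The main comparisons between lines left this pairing out, and the fits with the replicate block take it in. Sums over members were described without a test. Values in every library are given for RNR1, RNR2, COX1, ND4, ND6, CYTB, ATP6, ATP8, the top tRNA of each strand and the largest called change per comparison, with others by range. Among nuclear genes TFAM, POLRMT, LRPPRC, PNPT1, PPARGC1A and the largest called rise and fall of each list were named. Other members, such as TRND, TRNN, ND3 and ND5, were named after their values were seen. Members and lists were chosen with earlier results of these data known.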

Additional observations from a re-analysis of the deposited data

Results flagged for a closer look

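In 15 of 56 groups of 4 libraries examined, the highest library was so far from the other 3 that its gap to the nearest, as a part of the group's range, exceeded the 95% limit of Dixon's test for 4 values. Chance gives this in about 1 in 20 groups, and the 56 groups are not independent because members of a library rise and fall together. In all 15 the library was the library labelled KO guide 2 replicate 2 among the KO-labelled libraries. The gap was 0.973 of the range for the share of all mitochondrial reads (13.8% against 6.43% in the next library), 0.943 for the mRNAs (9.44% against 4.92%), 0.912 for the rRNAs (4.26% against 1.73%) and 0.860 for the tRNAs (0.0653% against 0.0235%). Among single genes it was 0.927 for RNR2 (785700 against 292314 normalized reads) and 0.857 for RNR1 (26272 against 12539). For the mRNAs of complex I it was 0.906 for ND2, 0.958 for ND4, 0.928 for ND5 and 0.861 for ND6. For cytochrome c oxidase it was 0.935 for COX1, 0.836 for COX2 and 0.841 for COX3, and for ATP synthase 0.888 for ATP8 and 0.872 for ATP6. The same library had 15784890 reads, the lowest depth of the 8, and the main differences between KO-labelled and control lines are also given without it.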

How the results depend on the processing

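The count of members called between KO-labelled and control lines was 0 under all 20 alternatives. With the replicate number as a block, which the numbers pair, the counts were 1 (from 0) for the line labelled KO guide 1 against controls, 8 (from 1) for the line labelled KO guide 2 against controls, 5 (from 0) between the control lines and 4 (from 0) between the KO-labelled lines, while the genes called in all rose to 3432, 3851, 1752 and 3442. The block changed no other call count. For the line labelled KO guide 2 against controls, equal library totals, equal totals of nuclear genes and edgeR gave 2 each and DESeq2 gave 4. Leaving out single libraries gave 0 to 7 there and 0 to 5 between the KO-labelled lines. Between replicates the 14 calls were 9 with no filter, 0 with no block for the line, 6 with DESeq2 and 2 to 21 with single libraries left out. For most of these fits the share of all genes called is not given here, so the counts of members cannot be set against it. The cause of the shifts was not tested.

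The KO-labelled minus control difference in share was 1.59 percentage points for all members, and ran from -0.262 (KO guide 2 replicate 2 left out) to 2.40 with single libraries left out. For the mRNAs it was 0.495 and ran from -0.674 (the same library left out) to 1.098, and it was -0.0297 without replicate 1 of control line 1. For the rRNAs it was 1.08 (0.407 to 1.33) and for the tRNAs 0.0159 (0.00477 to 0.0210). The rRNA to mRNA ratio difference of 0.150 kept its sign (0.120 to 0.169, and 0.233 with overlapping genes left out), as did that of tRNA reads per 1000 mRNA reads (2.16, with 1.52 to 2.70, and 2.85 with overlapping genes left out).

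Of 658 refits of single named genes 539 stayed on the same side of the threshold, 82 lost and 35 gained a call, and 2 changed sign. With single libraries left out, the log2 fold change of TRNP in the line labelled KO guide 1 ran from -0.15 (without its replicate 2) to 0.78, and that of RNR1 in the line labelled KO guide 2 from -0.034 (without its replicate 2) to 1.32. No scaling moved the median of all genes by over 0.1 on the log2 scale. Depth limits the 18 low tRNAs. With 4 lines, 1 per guide, differences between lines cannot be assigned to a guide or to loss of ANXA4.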
